A study of Homo sapiens with 9 samples.

Results

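The genes described here regulate or mark the transition between epithelial and mesenchymal cells. They are SNAI1, TWIST1, TWIST2, ZEB1, ZEB2, PRRX1, CDH1, CDH2, VIM and FN1, 10 of the 26871 genes present in all 3 deposited tables, and were found in those tables by gene name. All 10 were present in each table. Messenger RNA was measured by bulk sequencing of whole human spinal cord organoids (SCOs) in 9 libraries, 3 in each of 3 conditions. Vehicle SCOs received FGF alone, and VPA SCOs received FGF together with valproic acid, an inhibitor of histone deacetylases. VPA + Rapamycin SCOs received an inhibitor of mTOR in addition to valproic acid. The labels give the genotype of all libraries as WT, the line as WTC, an induced pluripotent stem cell line, and the exposure as 96 hours. This is longer than the VPA exposure stated in the study's results text, while some of its supplementary legends describe VPA exposures of that length. By the study's methods, every SCO was grown from a clone of this line that carries an edited SOX10 locus with a reporter switch, 5 to 7 SCOs of a clone were pooled, and clones C36 and C40 had small insertions or deletions on the other SOX10 allele. Same-numbered libraries of the 3 conditions share a prefix in their labels, which does not name clone C2, C36 or C40. The study's legend gives each library as a single clone, so same-numbered libraries may be matched by clone. The main tests here do not use this match, and their p-values measure the spread between these libraries.

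Epithelial cells hold together through E-cadherin and tight junctions, and in an epithelial to mesenchymal transition a small group of transcription factors of the SNAI, ZEB, TWIST and PRRX families lowers these junction genes and raises those of a migratory state. SNAI and ZEB proteins are zinc finger repressors that bind the E-box CAGGTG, TWIST proteins are basic helix-loop-helix factors, and PRRX1 is a homeobox factor of embryonic mesenchyme. In the neural tube the same genes mark other states as well, since neuroepithelial progenitors already use N-cadherin (CDH2) and vimentin (VIM), the neural crest passes through such a transition when it leaves the tube, and ZEB1 and ZEB2 are present in neural progenitors and neurons. In bulk samples fewer cells of a type and less RNA per cell cannot be told apart.

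The libraries held 15290299 to 17189216 gene counts in vehicle, 16217858 to 17417338 in VPA and 15609677 to 16795880 in VPA + Rapamycin, and 3 counts, taken as the floor of detection, correspond to 0.172 to 0.196 CPM. All 7 neural progenitor markers and all 8 neuron markers that were checked were present. Vehicle replicate 3 stood apart in several genes, with a summed neuron marker level of 32247 normalized counts against 18879 for the lowest vehicle library, and with nearly all vehicle counts of some mesenchymal genes, so results that rest on it are given with and without it. Normalized counts are read counts scaled by TMM factors over the 9 libraries, and values of a gene are given in the order of replicates 1, 2 and 3.

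The 10 genes differed widely in level per length. On the FPKM scale, fragments per kilobase of transcript scaled to library size, VIM was the highest in vehicle SCOs at 349 ± 33.9 (SD, n = 3), above 99.8% of genes, followed by CDH2 at 111 ± 5.48 and ZEB1 at 24.3 ± 5.23. FN1 at 8.42 ± 1.49 and ZEB2 at 7.23 ± 0.818 came next, and their vehicle libraries overlapped (7.16 to 10.1 and 6.31 to 7.87). In VPA SCOs these neighbours no longer overlapped, with FN1 at 10.7 to 12.5 and ZEB2 at 8.39 to 9.39. SNAI1 stood at 1.54 ± 0.359 in vehicle.

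The lowest genes were TWIST1, TWIST2, PRRX1 and CDH1. TWIST1 had a vehicle mean of 0.655 FPKM with an SD of 1.11, larger than the mean itself, and its vehicle libraries enclosed those of TWIST2 (0.387 ± 0.155) and PRRX1 (0.134 ± 0.231). In VPA + Rapamycin SCOs TWIST2 (0.421 ± 0.260) had a higher mean than TWIST1 (0.341 ± 0.0815), with overlapping libraries. CDH1, which encodes E-cadherin, had the lowest mean in each condition, at 0.0405, 0.0164 and 0.0157 FPKM in vehicle, VPA and VPA + Rapamycin. In vehicle replicates 1 and 2 PRRX1, at 0, was below it.

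**Figure D1:**
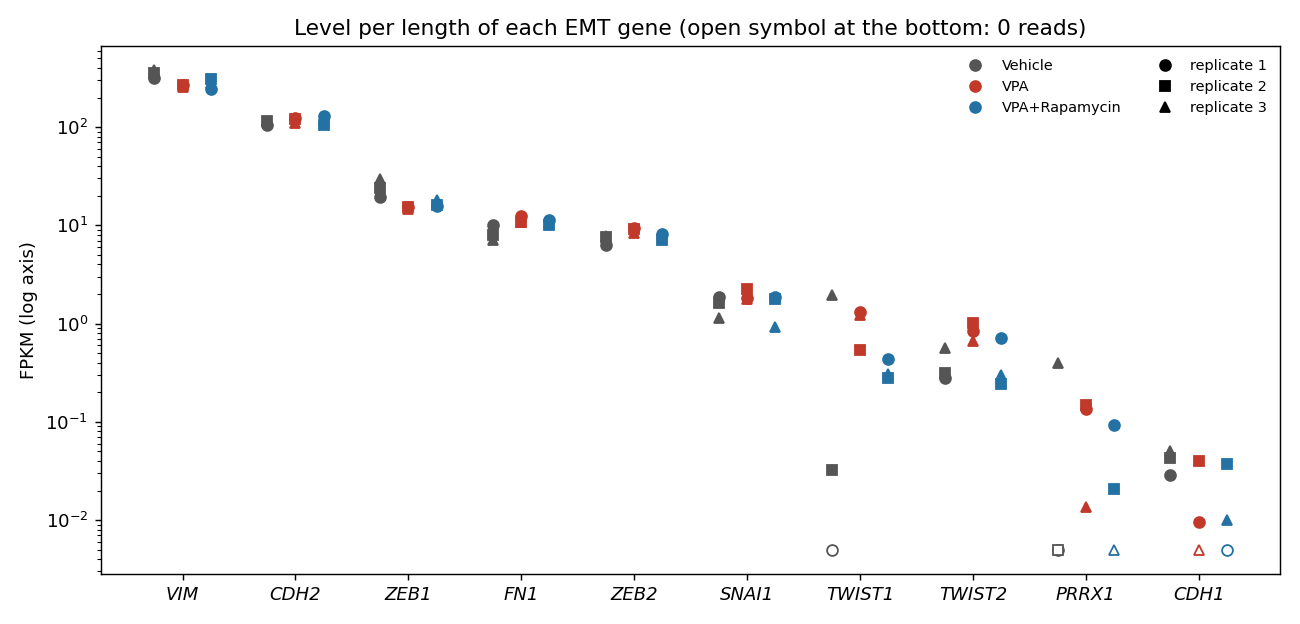
FPKM (log axis) of the 10 genes in each of 9 libraries, with colours for the conditions and symbols for replicates 1 to 3, and open symbols at the bottom for libraries with 0 reads. VIM and CDH2 lie above 100 FPKM in all libraries, and TWIST1 and PRRX1 spread over more than an order of size among the vehicle libraries.

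VPA was compared with vehicle to ask which of these genes moved when histone deacetylases were inhibited. ZEB2 and FN1 rose and ZEB1 and VIM fell, so that the ZEB repressors went in opposite directions, as did VIM and FN1. With the quasi-likelihood test of edgeR (adjusted p at most 0.05 over all genes), 2 of the 9 genes tested were higher, against 16.4% of all genes tested, and 2 were lower, against 15.7%. DESeq2 also called 2 higher and 2 lower. At an unadjusted p under 0.05 there were 3 higher, against 21.6% of all genes, and 2 lower, against 21.5%. The median log2 fold change of the 9 genes was 0.31, beside -0.00 over all genes tested. The filter on low counts removed CDH1. The 3 libraries of VPA and of vehicle did not overlap for 5 of the 9 genes, with TWIST2, ZEB2 and FN1 higher, against 24.9% of all genes tested, and ZEB1 and VIM lower, against 22.6%.

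ZEB1 (ENSG00000148516, chr10:31318495-31529814, plus strand, GRCh38) had 2786, 3406 and 4222 normalized counts in vehicle, 2198, 2227 and 2142 in VPA, with 2252, 2363 and 2620 in VPA + Rapamycin. Every vehicle library was above every treated library, and vehicle was also the most scattered condition (3471 ± 720, against 2189 ± 42.8 in VPA). ZEB1 fell by 0.68 on the log2 scale in VPA (SE 0.139, adjusted p = 0.00405), to 0.631 of the vehicle mean. It kept this call when any single library was left out, with log2 fold changes from -0.81 to -0.50, the smallest without vehicle replicate 3. VPA + Rapamycin lay 0.14 above VPA on the log2 scale (SE 0.0751, adjusted p = 0.283), without overlap of the libraries but without passing the test, and ZEB1 remained lower than in vehicle (log2 fold change -0.54, SE 0.147, adjusted p = 0.0282). This last call was lost without vehicle replicate 2 (adjusted p = 0.0763) and without VPA + Rapamycin replicate 1 (0.126), 2 (0.101) or 3 (0.0634).

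ZEB1 overlaps an antisense gene, ZEB1-AS1, which shares 366 bases, 4.23% of the exon bases of ZEB1, and whose mean count was 12.8% of that of ZEB1. ZEB1-AS1 had 346, 302 and 347 normalized counts in vehicle, 382, 320 and 287 in VPA, with 384, 371 and 340 in VPA + Rapamycin. The conditions overlapped, and its log2 fold change in VPA was -0.02 (SE 0.151, adjusted p = 0.933). Whether reads were counted by strand is not given in the sources used here, so reads of both genes may be mixed in the shared bases. No gene that overlaps another member exceeded 10% of that member's mean count.

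ZEB2 (ENSG00000169554, chr2:144364364-144524583, minus strand), the second ZEB repressor, had 2632, 3127 and 3233 normalized counts in vehicle, 3928, 3820 and 3512 in VPA, with 3383, 2986 and 3426 in VPA + Rapamycin. The VPA libraries were the highest 3 of the 9. ZEB2 rose by 0.31 on the log2 scale in VPA (SE 0.109, adjusted p = 0.0460), 1.25 times the vehicle mean. This call lay close to the threshold and was lost without vehicle replicate 1 (adjusted p = 0.157) or 2 (0.0935) and without VPA replicate 1 (0.151), 2 (0.0769) or 3 (0.0666). A fit with a block for replicate number and a fit with RLE normalization also ended the call. Its level in VPA + Rapamycin was -0.20 from VPA (SE 0.0765, adjusted p = 0.132) and 0.11 from vehicle (SE 0.115, adjusted p = 0.527), and neither difference passed the test.

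The ratio of ZEB2 to ZEB1 within a library does not depend on how libraries are scaled, and is given as a description, since the pair was chosen after its opposite changes had been seen. It was 0.945, 0.918 and 0.766 in vehicle, 1.79, 1.72 and 1.64 in VPA, with 1.502, 1.26 and 1.31 in VPA + Rapamycin, as counts that are not divided by gene length. ZEB1 had more counts than ZEB2 in every vehicle library and fewer in every treated library, and the 3 conditions did not overlap. The log2 ratio had a vehicle mean of -0.20 ± 0.164, a VPA mean of 0.78 ± 0.0621 and a VPA + Rapamycin mean of 0.44 ± 0.132 (SD, n = 3).

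VIM (ENSG00000026025, chr10:17228259-17237593, plus strand) encodes the intermediate filament protein vimentin. It had 26977, 30126 and 32294 normalized counts in vehicle, 23181, 22896 and 21979 in VPA, with 21230, 26845 and 24082 in VPA + Rapamycin. All 6 treated libraries were below all 3 vehicle libraries, though VPA + Rapamycin replicate 2 (26845) lay only just below vehicle replicate 1 (26977). VIM fell by 0.40 on the log2 scale in VPA (SE 0.0945, adjusted p = 0.00786), to 0.761 of the vehicle mean, and kept the call when any single library was left out (-0.47 to -0.34). The difference of VPA + Rapamycin from VPA was 0.09 (SE 0.0812, adjusted p = 0.581). Against vehicle, VPA + Rapamycin differed by -0.32 (SE 0.116, adjusted p = 0.0775), which missed the threshold with all 6 libraries and passed without vehicle replicate 1 (-0.39, adjusted p = 0.0288).

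FN1 (ENSG00000115414, chr2:215360440-215436172, minus strand) encodes fibronectin, a matrix glycoprotein that integrins bind. It had 2903, 2308 and 2033 normalized counts in vehicle, 3604, 3149 and 3096 in VPA, with 3258, 2910 and 3027 in VPA + Rapamycin. Every treated library was above every vehicle library, though VPA + Rapamycin replicate 2 and vehicle replicate 1 differed by few counts. FN1 rose by 0.43 on the log2 scale in VPA (SE 0.132, adjusted p = 0.0270), 1.36 times the vehicle mean. The call was lost without vehicle replicate 2 (adjusted p = 0.103) and without VPA replicate 1 (0.119), 2 (0.0703) or 3 (0.0609). VPA + Rapamycin differed from VPA by -0.10 (SE 0.0782, adjusted p = 0.524) and from vehicle by 0.34 (SE 0.133, adjusted p = 0.101). The comparison with vehicle passed without vehicle replicate 1 (0.49, adjusted p = 0.00829).

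**Figure D2:**
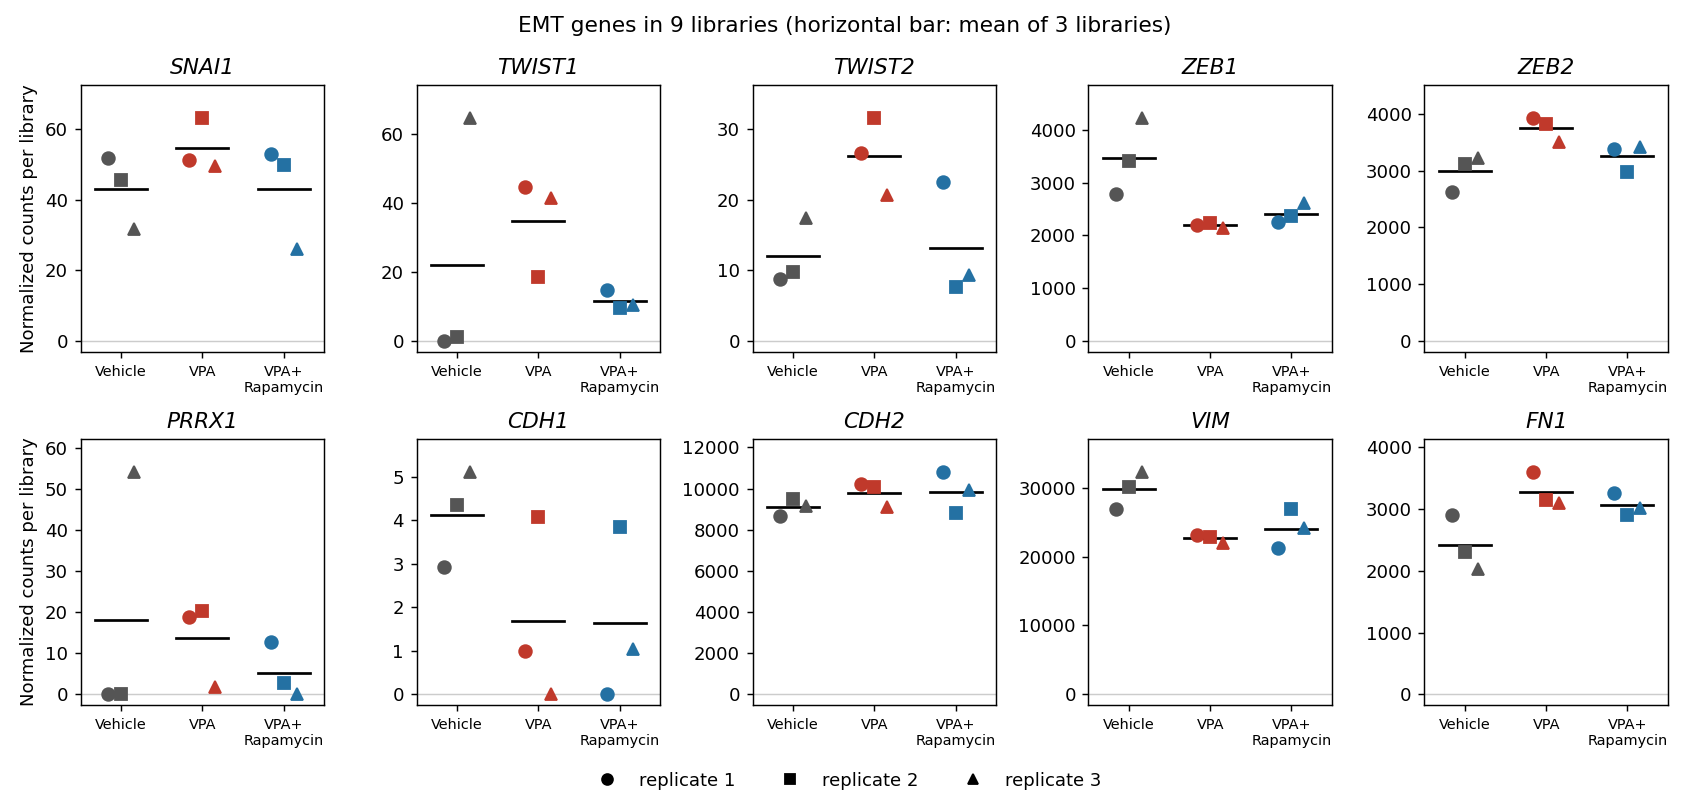
Normalized counts per library of each of the 10 genes, with a panel and a linear axis from 0 for each gene, symbols for replicates 1 to 3 and a bar for the mean of 3 libraries. ZEB1 and VIM are lower in all 6 treated libraries than in vehicle, FN1 is higher, and TWIST1 and PRRX1 have their highest value in vehicle replicate 3 beside vehicle libraries near 0.

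The stretches before the first annotated start of ZEB1, VIM and FN1 are shown because these genes passed the test in VPA, as ZEB2 did, whose stretch lies within annotated exons and is not shown, and because SNAI and ZEB factors bind E-boxes in promoters. They were read from RefSeq on GRCh38.p14, cover at most 250 bases before the start that lie outside annotated exons, and are written 5′ to 3′ on the strand of the gene. They are chr10:31318167-31318416 for ZEB1, chr10:17227991-17228240 for VIM and chr2:215436173-215436318, minus strand, for FN1. Capitals mark CAGGTG, which was searched on both strands.
ZEB1: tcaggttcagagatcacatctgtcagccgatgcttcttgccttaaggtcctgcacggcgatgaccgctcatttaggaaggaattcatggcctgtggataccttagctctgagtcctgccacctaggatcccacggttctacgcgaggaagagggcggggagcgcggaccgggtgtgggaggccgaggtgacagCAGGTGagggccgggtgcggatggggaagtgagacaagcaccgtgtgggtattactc
VIM: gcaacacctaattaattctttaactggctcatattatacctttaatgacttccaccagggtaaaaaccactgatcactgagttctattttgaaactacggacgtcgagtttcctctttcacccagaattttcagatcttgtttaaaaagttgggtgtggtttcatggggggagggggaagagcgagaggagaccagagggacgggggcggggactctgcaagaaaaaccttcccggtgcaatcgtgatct
FN1: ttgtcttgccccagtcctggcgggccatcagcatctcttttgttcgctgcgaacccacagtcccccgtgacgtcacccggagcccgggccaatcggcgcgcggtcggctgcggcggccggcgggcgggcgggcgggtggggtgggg
The ZEB1 stretch holds the 6 letters once, starting 57 bases before the start, and the stretches of VIM, of FN1 and of the other 5 ZEB1 starts with bases outside exons do not hold them. CAGGTG was present on either strand in 17.5% of 35116 stretches of 250 bases and in 11.3% of stretches of 146 bases, the length shown for FN1, so a match in a single stretch is a description only. The AP-1 motif TGANTCA, present in 6.57% of stretches of 250 bases, was in none of the 3. Of the 10 genes, 7 were matched in the RefSeq table, and SNAI1, TWIST1 and CDH1 were not.

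SNAI1 (ENSG00000124216, chr20:49982999-49988886, plus strand), a repressor of E-cadherin, had 51.8, 45.7 and 31.7 normalized counts in vehicle, 51.3, 63.2 and 49.7 in VPA, with 53.0, 50.01 and 26.0 in VPA + Rapamycin. All conditions overlapped. Its log2 fold change was 0.33 in VPA against vehicle (SE 0.298, adjusted p = 0.421), -0.34 in VPA + Rapamycin against VPA (SE 0.304, adjusted p = 0.570) and -0.01 in VPA + Rapamycin against vehicle (SE 0.352, adjusted p = 0.991).

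TWIST1 (ENSG00000122691, chr7:19020991-19117672, minus strand), a basic helix-loop-helix factor of head mesenchyme and neural crest, had 0, 1 and 63 reads in the vehicle libraries, or 0, 1.09 and 64.4 normalized counts. It had 44.4, 18.3 and 41.3 normalized counts in VPA, with 14.7, 9.62 and 10.4 in VPA + Rapamycin. Vehicle replicate 3 was the highest of the 9 libraries and held 98.3% of the vehicle counts, while the other vehicle libraries were the lowest. TWIST1 fell by 1.57 on the log2 scale when Rapamycin was added to VPA (SE 0.444, adjusted p = 0.0398), to 0.334 of the VPA mean, with all 3 libraries below those of VPA. This comparison uses no vehicle library. The call was lost without VPA replicate 1 (adjusted p = 0.178) or 3 (0.143) and without VPA + Rapamycin replicate 2 (0.105) or 3 (0.135), and the log2 fold changes ran from -1.87 to -1.36 over the libraries left out. A single fit over all 9 libraries ended it as well (adjusted p = 0.540).

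For TWIST1 the comparison of VPA with vehicle was decided by 1 library. With all 6 libraries the log2 fold change was 0.65 (SE 1.02, adjusted p = 0.663), and without vehicle replicate 3 it was 5.76 (adjusted p = 0.000107). Over vehicle replicates 1 and 2 there was 1 read, against 107 reads over the VPA libraries, a depth-scaled ratio of 67.9 with a 95% counting interval of 11.9 to 2707. VPA + Rapamycin differed from vehicle by -0.92 with all libraries (SE 1.13, adjusted p = 0.609) and by 4.18 without vehicle replicate 3 (adjusted p = 0.0171), so the sign turned.

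TWIST2 (ENSG00000233608, chr2:238848032-238910543, plus strand), a paralogue of TWIST1, had 8.80, 9.79 and 17.4 normalized counts in vehicle, 26.6, 31.6 and 20.6 in VPA, with 22.6, 7.69 and 9.37 in VPA + Rapamycin. The VPA libraries lay above the vehicle libraries, with a mean 2.19 times as high. The log2 fold change of 1.11 did not pass the test (SE 0.441, adjusted p = 0.0753), and it did without vehicle replicate 3 (1.48, adjusted p = 0.0381), which held 48.3% of the vehicle counts. VPA + Rapamycin differed from VPA by -0.98 (SE 0.468, adjusted p = 0.235), with replicate 1 among the VPA values, replicate 2 below every vehicle library and replicate 3 among the vehicle values. In the table of VPA + Rapamycin and vehicle the filter on low counts removed the gene.

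PRRX1 (ENSG00000116132, chr1:170662728-170739419, plus strand) had 0, 0 and 53 reads in the vehicle libraries, 19, 20 and 2 in VPA, with 13, 3 and 0 in VPA + Rapamycin. All of its vehicle reads were in replicate 3, the highest of the 9 libraries. The log2 fold change of VPA against vehicle was -0.43 with all libraries (SE 1.22, adjusted p = 0.814) and turned to 6.77 without vehicle replicate 3 (adjusted p = 0.00626). Vehicle replicates 1 and 2 had 0 reads. Set against an assumed floor of 3 counts over both, the VPA level was 8.67-fold higher, with only 2 reads in VPA replicate 3. The lower 95% counting limit of the ratio to the observed 0 reads was 6.74. The same values for VPA + Rapamycin were 3.43 and 2.48, and 13 of its 16 reads were in replicate 1. Rapamycin added to VPA gave -1.34 (SE 0.839, adjusted p = 0.382).

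Within vehicle, replicate 3 had a depth-scaled TWIST1 level 125 times that of replicates 1 and 2 together (95% counting interval 21.7 to 5019). Its PRRX1 level was 35.1-fold above an assumed floor of 3 counts over replicates 1 and 2. The lower 95% counting limit of the PRRX1 ratio to their observed 0 reads was 27.6. Part of the 10 mesenchyme markers were high in the same library. It held 100% of the vehicle counts of DCN, 92.0% of those of COL6A3, 81.5% of those of COL3A1, 79.4% of those of LUM and 78.6% of those of POSTN, which encode matrix proteins of fibroblasts. For the other 5 markers it held 47.4% (COL1A2), 41.8% (PDGFRA), 36.0% (PDGFRB), 30.5% (THY1) and 19.2% (COL1A1), and the summed level of all 10 was 4682 normalized counts, below the 5825 of vehicle replicate 1. It held 40.5% of the vehicle counts of ZEB1. The part of these markers in the TWIST1 and PRRX1 values was not tested.

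Neither cadherin passed a test in any comparison. CDH2 (ENSG00000170558, chr18:27950966-28177446, minus strand), which encodes the N-cadherin of neural tissue, had 8659, 9500 and 9155 normalized counts in vehicle, 10209, 10078 and 9114 in VPA, with 10813, 8822 and 9921 in VPA + Rapamycin. All conditions overlapped. The log2 fold changes were 0.10 in VPA against vehicle (SE 0.0927, adjusted p = 0.462), 0.01 in VPA + Rapamycin against VPA (SE 0.0805, adjusted p = 0.959) and 0.10 in VPA + Rapamycin against vehicle (SE 0.106, adjusted p = 0.527). CDH1 (ENSG00000039068, chr16:68737225-68835548, plus strand) had 3, 4 and 5 reads in vehicle, 1, 4 and 0 in VPA, with 0, 4 and 1 in VPA + Rapamycin. These counts lie around the floor of 3. The filter on low counts removed CDH1, and without it the log2 fold changes of edgeR were -1.25, -0.03 and -1.27 in the 3 comparisons (adjusted p = 0.570, 1.00 and 0.603), so a change was not detectable at this depth.

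Adding Rapamycin to VPA asks whether inhibition of mTOR changed these genes in the presence of VPA. TWIST1 was the 1 gene called among the 9 tested, and it was lower, against 3.73% of all genes lower, while 0 were higher, against 3.01%. At an unadjusted p under 0.05 edgeR gave 0 higher, against 10.4% of all genes, and 2 lower, against 11%, and DESeq2 called 0 higher and 1 lower at an adjusted p of 0.05. The median log2 fold change was -0.20 beside 0.00 over all genes. The libraries did not overlap for 3 of the 9 genes, with ZEB1 higher, against 12.3% of all genes tested, and TWIST1 and ZEB2 lower, against 13.2%.

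In VPA + Rapamycin against vehicle, 0 of the 7 genes tested were higher, against 9.81% of all genes, and 1, ZEB1, was lower, against 9.22%. The unadjusted test of edgeR gave 1 higher, against 16.7% of all genes, and 2 lower, against 17%, and DESeq2 called 0 higher and 1 lower. The median was -0.01 beside -0.00 over all genes, and the libraries did not overlap for FN1, which lay higher, against 20.3% of all genes tested, and for ZEB1 and VIM, which lay lower, against 18.2%. The comparisons share libraries, VPA with VPA + Rapamycin and both with vehicle, and their values are therefore not independent.

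**Figure D3:**
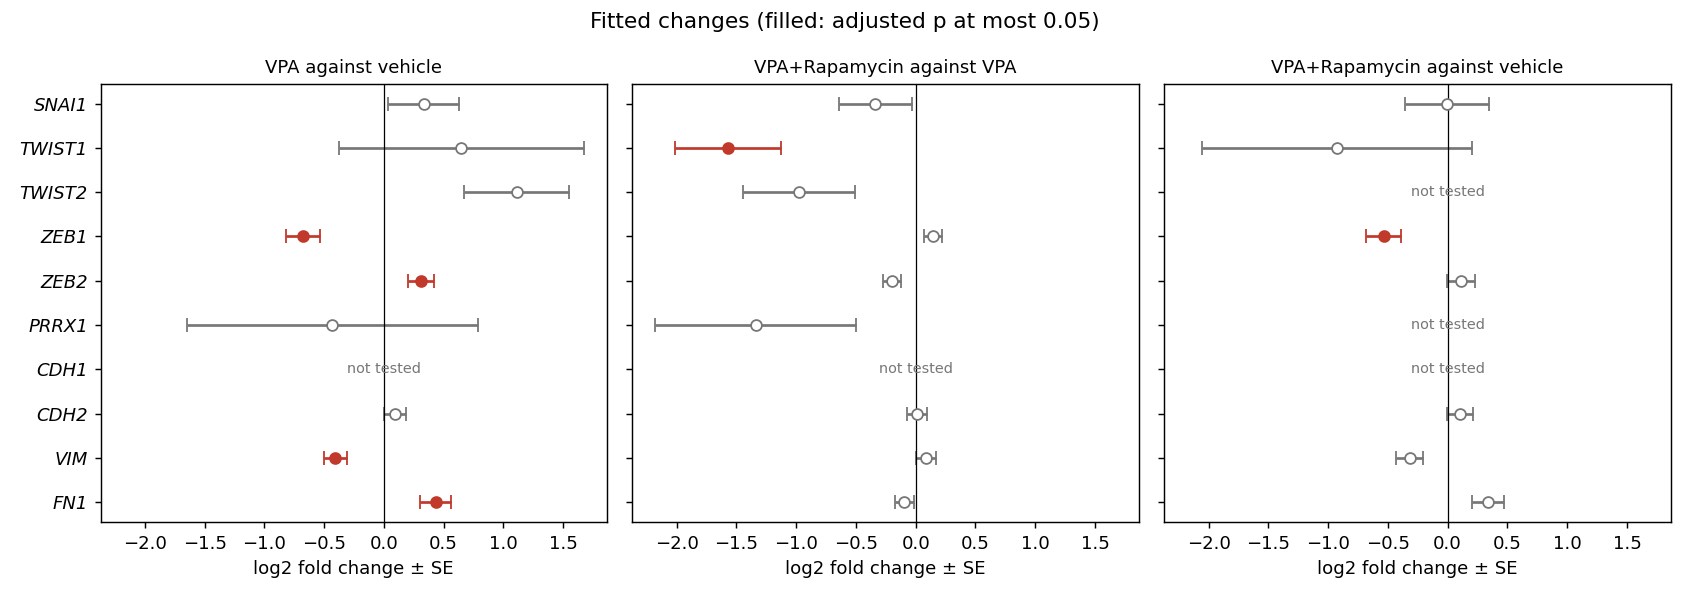
Log2 fold change of each gene in the 3 comparisons, with bars for the SE and filled red points where the adjusted p of edgeR was at most 0.05. ZEB1, VIM, ZEB2 and FN1 are filled in VPA against vehicle, TWIST1 in VPA + Rapamycin against VPA and ZEB1 in VPA + Rapamycin against vehicle.

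**Figure D4:**
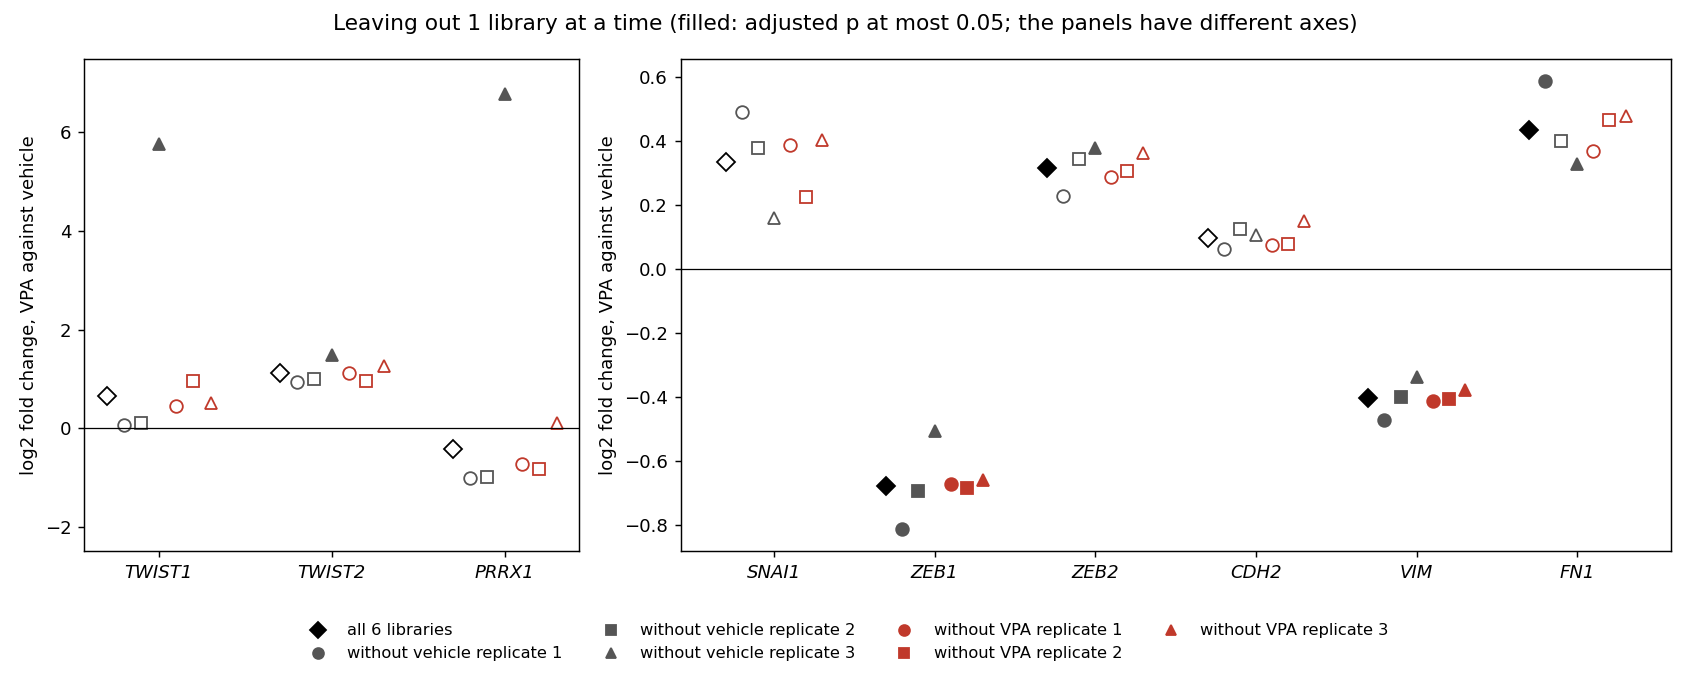
Log2 fold change of VPA against vehicle with all 6 libraries and with each library left out, filled where the adjusted p was at most 0.05, with separate axes for the low genes (left) and the others (right). TWIST1 and PRRX1 go to 5.76 and 6.77 without vehicle replicate 3, while ZEB1 and VIM stay filled throughout.

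Other genes of the transition were grouped by role in lists that, like the members, were chosen with results of these data known. Their counts stand beside the same shares of all genes called, 16.4% higher and 15.7% lower in VPA against vehicle, and 3.01% and 3.73% when Rapamycin was added to VPA. These shares belong to the fits with all libraries, and calls over all genes moved too when a library was left out. In VPA against vehicle, 2840 genes were higher with all libraries and 3480 without vehicle replicate 1. Without vehicle replicate 2 or any 1 of the VPA libraries, 1791 to 1968 were higher. Among 11 other transcription factors of the transition, VPA raised 3 and lowered 3 against vehicle, and the median was -0.08. PRRX2, a paralogue of PRRX1, had 126, 26.1 and 26.6 normalized counts in vehicle and 230, 220 and 230 in VPA, and rose by 1.91 (SE 0.469, adjusted p = 0.0102), or by 3.09 without vehicle replicate 1. PRRX2 had 176, 162 and 116 in VPA + Rapamycin and fell by 0.58 when Rapamycin was added to VPA (adjusted p = 0.0430), a call that was kept in 1 of 6 fits with a library left out, the one without VPA + Rapamycin replicate 1. ETS1 rose by 1.34 (SE 0.292, adjusted p = 0.00551), and TCF4, which encodes a dimer partner of TWIST proteins, fell by 0.59 (SE 0.128, adjusted p = 0.00539). The count was 3 higher and 5 lower without vehicle replicate 3, and 2 higher and 1 lower without vehicle replicate 2 or VPA replicate 1 or 3.

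Epithelial junction and keratin genes held more higher than lower calls, with 11 higher and 1 lower of 23 tested in VPA against vehicle and a median of 0.60. CLDN6, a tight junction claudin, had 28.3, 10.9 and 8.18 normalized counts in vehicle, 220, 184 and 190 in VPA, with 120, 70.2 and 77.0 in VPA + Rapamycin. It rose by 3.61 in VPA (SE 0.364, adjusted p = 6.86e-05) and fell by 1.15 when Rapamycin was added (SE 0.203, adjusted p = 0.00211), without overlap among the 3 conditions. Without vehicle replicate 1 the rise in VPA was 4.35.

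KRT19, a keratin of simple epithelia, had 25.4, 2.18 and 6.13 normalized counts in vehicle and 153, 124 and 109 in VPA (3.46, SE 0.534, adjusted p = 0.000804), and the log2 fold change was 4.88 without vehicle replicate 1. OCLN, which encodes occludin, rose by 1.35 (SE 0.176, adjusted p = 0.000309), LSR, a protein of tricellular junctions, by 1.81 (SE 0.231, adjusted p = 0.000264) and DSG2, a desmosomal cadherin, by 0.72 (SE 0.121, adjusted p = 0.00132). The single gene that fell was CDH3, which encodes P-cadherin (-1.31, SE 0.334, adjusted p = 0.0120), a call lost without VPA replicate 2 or 3, with adjusted p up to 0.0582. For EPCAM, the general epithelial surface marker, the log2 difference was -0.02 (adjusted p = 0.978).

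Vehicle replicate 1 had the highest summed epithelium markers of the vehicle libraries. Without this library the list had 15 higher and 1 lower and a median of 0.92, beside 3480 of all 17842 genes tested higher. Without vehicle replicate 2 it had 9 and 1 (median 0.35), without vehicle replicate 3 11 and 1 (median 0.15) and without VPA replicate 1 10 and 1 (median 0.27). When Rapamycin was added to VPA, 0 were higher and 3, CLDN6, PPL and SPINT1, were lower, with a median of -0.21. The lower calls went to 1 without VPA replicate 1 or VPA + Rapamycin replicate 3. PPL and SPINT1, a component of desmosomal plaques and a protease inhibitor, fell by 1.30 and 1.23 (adjusted p = 0.0317 and 0.0328), calls that leaving out single libraries ended, with PPL kept in 3 and SPINT1 in 1 of 6 such fits and adjusted p up to 0.252 and 0.118. In VPA + Rapamycin against vehicle 7 were higher and 0 lower, with a median of 0.33, against 9 and 0 with a median of 0.81 without vehicle replicate 1. In vehicle the summed level of the 6 epithelium markers present in the tables was 147 to 862 normalized counts. It was 537 to 990 in VPA and 407 to 683 in VPA + Rapamycin, with overlap of the conditions. EPCAM, KRT8, KRT18, KRT19 and CLDN4 are also in the junction and keratin list, so the sum is not separate from it. KRT8 alone gave 522 of the 862 in vehicle replicate 1. The part of these markers in the junction gene values was not tested.

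Of the epithelial transcription and splicing factors, 2 of 5 tested were higher in VPA and 0 lower (median 0.39), and 1 without vehicle replicate 2 or VPA replicate 1. RBM47, an RNA-binding protein of epithelia, rose by 1.33 (SE 0.249, adjusted p = 0.00243) and fell by 1.09 when Rapamycin was added (adjusted p = 0.0115), the second call being lost without VPA replicate 2 or VPA + Rapamycin replicate 3, with adjusted p up to 0.0615. KLF5 rose by 1.13 (SE 0.297, adjusted p = 0.0140), which was lost without vehicle replicate 2 or VPA replicate 1 (adjusted p up to 0.0618).

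Of 23 mesenchymal effector genes tested, 4 were higher and 2 lower in VPA than in vehicle (median 0.17), and 7 and 3 without vehicle replicate 3 (median 0.26). Without vehicle replicate 2 there were 4 and 1, with a median of -0.04. LGALS1, which encodes galectin-1, had 183, 79.4 and 32.7 normalized counts in vehicle, 397, 360 and 403 in VPA, with 199, 222 and 137 in VPA + Rapamycin. It rose by 1.96 (SE 0.411, adjusted p = 0.00449), or by 2.78 without vehicle replicate 1, and fell by 1.05 with Rapamycin (SE 0.152, adjusted p = 0.000444). THY1 rose by 0.80 (SE 0.122, adjusted p = 0.000760), MMP2, a matrix metalloproteinase, by 0.99 (SE 0.229, adjusted p = 0.00742) and TNC, which encodes tenascin-C, by 1.49 (SE 0.358, adjusted p = 0.00913), the last being lost without VPA replicate 1 (adjusted p = 0.0526).

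CDH11, the cadherin of mesenchyme, went the other way, with 2002, 2141 and 1841 normalized counts in vehicle and 1336, 1256 and 1290 in VPA (-0.63, SE 0.102, adjusted p = 0.00101). When Rapamycin was added to VPA, 1 of 23 effector genes was higher, CDH11, and 4 were lower, LUM, LGALS1, S100A4 and PDGFRB (median -0.20). The lower calls went to 2 without VPA replicate 1 or 2 or VPA + Rapamycin replicate 2. LUM, which encodes the matrix proteoglycan lumican, had 398, 337 and 265 normalized counts in VPA, with 122, 95.2 and 169 in VPA + Rapamycin, and fell by 1.37 (SE 0.190, adjusted p = 0.000282). In vehicle it had 80.1, 72.9 and 591, with replicate 3 above all other libraries. S100A4 and PDGFRB fell by 0.82 and 0.48 (adjusted p = 0.0386 and 0.0490) and kept the call in 1 of 6 fits with a library left out, while CDH11 rose by 0.28 (adjusted p = 0.0241) and kept it in 2.

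The summed level of 10 mesenchyme markers was 2992 to 5825 normalized counts in vehicle, 10477 to 13010 in VPA, with 5074 to 7032 in VPA + Rapamycin. COL1A1 and COL1A2 made up most of each sum, with 5230 and 6020 of the 13010 in VPA replicate 1. Of the 10 markers, 6 are also in the effector list. DCN was at 0 in vehicle replicates 1 and 2 and in VPA + Rapamycin replicate 1, and COL6A3 was at 0 in vehicle replicate 2. Of 9 of the markers tested, 3 were higher and 0 lower in VPA against vehicle, against 16.4% and 15.7% of all genes. In VPA + Rapamycin against VPA 0 were higher and 5 lower, against 3.01% and 3.73% of all genes. TWIST1, TWIST2 and PRRX1 had higher VPA than VPA + Rapamycin means as well, and the part of these markers in their values was not tested. Neuron markers summed to 17371 to 18385 in VPA, below the 18879 to 32247 of vehicle. Of 8 tested, 5 were lower and 0 higher, against 15.7% and 16.4% of all genes. This stood beside the fall of ZEB1 and VIM, and the part of the neuron markers in that fall was not tested. Markers of neural crest and glia summed to 6662 to 8300 in vehicle, 6516 to 6982 in VPA, against 6461 to 7027 in VPA + Rapamycin. Of 8 tested in VPA against vehicle, 1 was higher and 4 lower, against 16.4% and 15.7% of all genes. The summed blood markers reached at most 4.91.

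Other cadherins and catenins had 1 higher and 7 lower calls of 20 tested in VPA against vehicle (median -0.09), and 3 and 7 without vehicle replicate 1 or 3. They had 0 higher and 4 lower without vehicle replicate 2 or VPA replicate 2 or 3, and 0 and 5 without VPA replicate 1. CDH13, a cadherin without a transmembrane domain, had 198, 396 and 209 normalized counts in vehicle, 40.5, 65.2 and 83.5 in VPA, with 70.7, 76.0 and 68.7 in VPA + Rapamycin, and fell by 2.09 in VPA (SE 0.321, adjusted p = 0.000785). CTNND2, a catenin of neurons, fell by 0.48 (SE 0.104, adjusted p = 0.00550). With Rapamycin added to VPA, 1 was higher, CDH11, and 1 lower, CDH20, and neither was called without any 1 of the VPA libraries.

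Of the 10 other intermediate filament genes tested, 3 were higher and 1 lower in VPA (median 0.56). Without vehicle replicate 1 there were 5 and 2 (median 1.19), without vehicle replicate 3 3 and 1 (median 0.16), and without VPA replicate 1 3 and 0 (median 0.20). NEFH, the heavy neurofilament subunit, had 97.7, 97.9 and 86.9 normalized counts in vehicle, 240, 290 and 316 in VPA, with 347, 208 and 227 in VPA + Rapamycin, and rose by 1.57 (SE 0.179, adjusted p = 0.000143), while VIM of the same family fell. SYNM, which encodes synemin, a partner of vimentin in filaments, rose by 1.20 (SE 0.224, adjusted p = 0.00241).

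Of the fibronectin receptors and partners, 2 of 9 were higher in VPA and 0 lower (median 0.22). Without vehicle replicate 1 there were 4 and 1 (median 0.37), and without vehicle replicate 2 or VPA replicate 1 or 3 there were 1 and 0. ITGA9, an integrin subunit that binds fibronectin variants, had 342, 387 and 255 normalized counts in vehicle, 547, 666 and 678 in VPA, with 760, 681 and 715 in VPA + Rapamycin, and rose by 0.93 in VPA (SE 0.165, adjusted p = 0.00175). TGM2, a transglutaminase, rose by 1.25 (SE 0.364, adjusted p = 0.0226), a call lost without vehicle replicate 2 or VPA replicate 1 or 3 (adjusted p up to 0.121). ITGA8 rose by 0.61 when Rapamycin was added to VPA (SE 0.121, adjusted p = 0.00479).

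Of 13 co-repressors of SNAI and ZEB factors, 1 was higher and 2 lower in VPA (median -0.12), 1 and 3 without vehicle replicate 1 or 3, and 0 and 1 without vehicle replicate 2 or any 1 of the VPA libraries. AJUBA, a LIM protein that SNAI factors recruit, had 2360, 1831 and 1979 normalized counts in vehicle, 1085, 1122 and 1144 in VPA, with 1572, 1482 and 1388 in VPA + Rapamycin, and the 3 conditions did not overlap. It fell by 0.89 in VPA (SE 0.115, adjusted p = 0.000294), rose by 0.41 when Rapamycin was added (SE 0.0770, adjusted p = 0.00339) and was still 0.48 below vehicle (adjusted p = 0.0191). The last call was lost without any 1 of the VPA + Rapamycin libraries (adjusted p up to 0.0969). HDAC1 rose by 0.32 and RCOR1 fell by 0.29 (adjusted p = 0.0277 and 0.0387), and both calls were lost without vehicle replicate 2 or any 1 of the VPA libraries. Of 7 dimer partners and inhibitors of TWIST proteins, ID1 rose by 0.72 (SE 0.158, adjusted p = 0.00573) and TCF4 fell, and there were 2 higher and 2 lower without vehicle replicate 1.

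The genes whose levels followed those of the 4 members called in VPA most closely over the 9 libraries, by Pearson's correlation of log2 levels among 17220 genes, are given as a description, since the points share conditions and libraries. They were MIR124-2HG (r = 0.994), RFX3 (0.994) and NSD3 (0.990) for ZEB1, and HAT1 (0.982), MAP3K5 (0.973) and DLD (0.970) for ZEB2. For VIM they were WSB1 (0.962), CTNND2 (0.960) and AC124016.1 (0.957), and for FN1 SLC9A3R1 (0.986), PLGRKT (0.983) and FXYD5 (0.980). For TWIST1, whose level is near 0 in 2 vehicle libraries, they were SPTSSA (0.980), LMX1B (0.975) and CBLN1 (0.968).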

How the data were processed

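Reads were counted per gene by the authors, and the submitters' processing notes name HISAT2 2.0.5 and featureCounts 1.5.0-p3. The kit was NEBNext Ultra RNA with poly-T beads and random hexamers, and the annotation and strand setting are not given in the sources used here. The deposited tables, 1 for each pair of conditions, hold counts without normalization, which were tested here, and the authors' FPKM, which were used for levels between genes. The deposited gene lengths and coordinates, which equal those of GENCODE v29 for the members, are the authors' too. The authors' own comparison columns (fold changes and p-values) and size-factor scaled counts were not used. All per-sample columns used were matched to the labels, with 0 left over.

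Each pair of conditions was tested within its own table of 6 libraries by edgeR 4.0.16 in R 4.3.3 (TMM, filterByExpr at its defaults, quasi-likelihood F test, no replicate block), with Benjamini-Hochberg adjustment over the 17360, 17317 and 17383 genes tested for VPA against vehicle, VPA + Rapamycin against VPA and VPA + Rapamycin against vehicle. A gene was called at an adjusted p of at most 0.05. The members and lists were chosen with earlier results of these data known. The genes named are all members and, of each list and comparison, the called genes with the smallest adjusted p. EPCAM, outside this rule, was named after its value was seen. An overlapping gene is named where its mean count exceeds 10% of the member's. Alternatives were DESeq2 1.42.0, RLE and upper-quartile normalization, no filter, a minimum of 10 counts per library, 1 fit over all 9 libraries, a replicate block and leaving out each library. Leaving out libraries for the lists was added after the data had been seen. Replicates differed beyond sampling noise. Counting intervals are at the 95% level and, like the floor of 3 counts, cover counting error only. The scripts were tested on simulated data.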

Additional observations from a re-analysis of the deposited data

How the results depend on the processing

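Of the 4 members called in VPA against vehicle, 4 calls were made by DESeq2, upper-quartile normalization, no filter, at least 10 counts and all 9 libraries in a single fit, and 3 by RLE normalization and by the replicate block. Leaving out 1 library gave 2 to 7 calls, with 7 without vehicle replicate 3, 3 without vehicle replicate 1 and 2 without vehicle replicate 2 or any VPA library. ZEB2 was the call lost under RLE (adjusted p = 0.0526) and under the block (0.0858). ZEB1 and VIM kept their calls in all 13 alternatives. In VPA + Rapamycin against VPA the 1 call, TWIST1, became 0 with all 9 libraries in a single fit (adjusted p = 0.540), and leaving out a library gave 0 to 1, with 0 without VPA replicate 1 or 3 or VPA + Rapamycin replicate 2 or 3. Over all genes that fit called 44 higher and 69 lower against 522 and 646. Over all genes, leaving out 1 library gave 1791 to 3480 higher and 1599 to 3230 lower calls in VPA against vehicle (2840 and 2728 with all), 175 to 533 and 297 to 670 in VPA + Rapamycin against VPA, and 761 to 2204 and 534 to 2110 in VPA + Rapamycin against vehicle (1705 and 1602 with all). In VPA + Rapamycin against vehicle the 1 call became 2 in the single fit, which added VIM (-0.32, adjusted p = 0.0289), and 2 under the block, which added FN1 (0.35, adjusted p = 0.0451). Leaving out a library gave 0 to 3, with 3 without vehicle replicate 1, 2 without vehicle replicate 3 and 0 without vehicle replicate 2 or any VPA + Rapamycin library. The cause of these changes was not tested.

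Signs turned for differences near 0 and for genes scattered among the vehicle libraries. The log2 fold change of PRRX1 in VPA against vehicle went from -0.43 to 0.95 under the block, 6.77 without vehicle replicate 3 and 0.10 without VPA replicate 3, and leaving out 1 library gave -1.02 to 6.77. That of TWIST1 in VPA + Rapamycin against vehicle went from -0.92 to 0.40 under the block and ran from -1.51 to 4.18 over the libraries left out, with 4.18 without vehicle replicate 3. That of SNAI1 there went from -0.01 to 0.0218 with upper-quartile normalization, 0.15 and 0.03 without vehicle replicates 1 and 2, and 0.25 without VPA + Rapamycin replicate 3, with -0.18 as the lowest. In VPA + Rapamycin against VPA, CDH2 went from 0.01 to -0.04 without VPA replicate 3 and -0.0629 without VPA + Rapamycin replicate 1 (highest 0.0826), and VIM from 0.09 to -0.000595 without VPA + Rapamycin replicate 2 (highest 0.17). The cause was not tested. Same-numbered libraries, which share a prefix in their labels, correlated at -0.0607 to 0.171 in their deviations from the group means. This correlation cannot decide whether they are matched by clone, since each group mean rests on few libraries. The main tests did not take them as pairs, and the replicate block did. CDH1 was removed by the default filter on low counts in each comparison.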
